A study of Mus musculus with 6 samples.

Results

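Prrx1, Prrx2, Twist1, Twist2, Alx1, Alx4, Msx1, Msx2 and Gsc encode transcription factors of embryonic mesenchyme, and their messenger RNA was measured in fibroblasts with and without PME-1. These 9 genes were taken by symbol from a list of names, out of 53762 gene symbols in the files. In PME-1 knockout (KO) cells Gsc was 14.0-fold lower than in wild-type (WT) cells, the other tested genes were not called by edgeR, Alx4 had no read in any library, and Alx1 had reads in 1 library alone.

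Prrx1, Prrx2, Alx1, Alx4, Msx1, Msx2 and Gsc carry a homeodomain, a DNA-binding fold of many developmental regulators, while Twist1 and Twist2 are basic helix-loop-helix (bHLH) proteins that bind DNA as dimers. In the embryo they act in mesenchyme, the loose connective tissue of the limb bud, face and skull vault, where the members of a family often overlap in place and function. Msx genes are known targets of bone morphogenetic protein (BMP) signals, Twist proteins pair with E proteins and are held back by Id proteins, and Gsc (goosecoid) is known from the gastrula organizer and later from the jaw and middle ear.

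All 6 libraries are of immortalized mouse embryonic fibroblasts (MEFs), the connective tissue cells that grow out of dissociated embryos. They were kept in high-glucose DMEM with 10% fetal bovine serum and collected 24 hours after seeding. There were 3 libraries from KO cells and 3 from WT cells, named KO 1 to KO 3 and WT 1 to WT 3 after their titles. PME-1, the product of Ppme1, is a methylesterase that takes the methyl mark off protein phosphatase 2A. The labels give no strain, no number of clones or embryos, and no statement that the 3 libraries of a group are separate cultures, so the p-values measure the spread between these libraries, which may be technical.

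Total counts lay between 34450993 and 44116310 per library, and 3 counts, the floor used for a gene without reads, equalled 0.0689 to 0.0881 CPM (read counts divided by the TMM-scaled size of each library). Ppme1 (chr7:100326737-100372307, GRCm38, minus strand) averaged 17.4 ± 2.14 CPM in KO and 81.9 ± 4.22 CPM in WT (SD, n = 3 each), a 4.72-fold lower level with an edgeR adjusted p of 0.000563. The KO libraries held reads of Uty, Kdm5d, Eif2s3y and Ddx3y, which are Y-linked, and 0.117 to 0.310 CPM of Xist, while the WT libraries held 0 reads of those 4 genes and 370 to 490 CPM of Xist. The KO and WT cells thus differed in sex markers, and this difference cannot be told apart from the genotype in any comparison below. KO 1 and WT 1 stood apart from the other libraries of their groups: the chi-square per degree of freedom between libraries was 13.92 for KO 2 with KO 3 and 13.41 for WT 2 with WT 3, and 125.07 to 149.25 for pairs of 1 group that include library 1. Across the groups, WT 1 was nearer to KO 2 (97.95) and KO 3 (89.37) than to WT 2 (139.16) or WT 3 (125.07). KO 1 was at 130.79 with WT 2 and 140.28 with WT 3, against 149.25 with KO 2 and 128.71 with KO 3.

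Of the fibroblast and mesenchyme markers, 12 of 12 were tested. Their summed level was 13664 to 15791 CPM in KO and 17099 to 23295 CPM in WT. Col1a1, Col5a1, Pdgfrb and S100a4 were called lower in KO, 0 were called higher, and 8 were not called. Of those 8, Thy1 was at 4.58 to 9.36 CPM in KO and 1.03 to 3.47 CPM in WT. Dcn was at 12.5 to 63.2 CPM in KO and 1.05 to 10.0 CPM in WT. For both, every KO library lay above every WT library. The summed epithelial markers were at 128 to 147 CPM in KO and 8.84 to 32.1 CPM in WT. Krt8 and Krt18 were called higher, and Krt5 and Krt14 were at 0 in every library. Most of each sum came from Krt18 and Krt19, and Krt19 alone had 29.5 CPM in WT 1. Epcam overlapped between the groups, at 0.469 to 1.09 CPM in KO and 0.194 to 1.18 CPM in WT. Cdh1 was at 0 to 0.310 CPM in KO and 0.111 to 0.436 CPM in WT. The part of these shifts in the results below was not tested. The bone and muscle lists were near the floor, with summed osteoblast markers at no more than 0.621 CPM in KO and 0.67 CPM in WT and with Myod1, Myf5 and Myog at 0. Cartilage markers summed to 7.19 to 11.8 CPM in KO and 1.18 to 2.19 CPM in WT, of which Acan was the called member. Neural crest and glia markers summed to 95.8 to 134 CPM in KO and 81.8 to 98.9 CPM in WT, with the defining genes Sox10, Foxd3 and Ngfr at 0 in every library. Most of each sum was Ets1, at 81.6 to 127 CPM in KO and 72.2 to 92.3 CPM in WT, followed by Erbb3.

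Several of these genes are close copies of each other, which matters because a read from a shared stretch cannot be placed. The windows of 90 coding bases in which paralogs are most alike are shown here, with differing bases in capitals, each in its own gene's reading direction. The Prrx and Msx windows lie in the homeobox and the Twist windows in the bHLH region (GRCm38 sequence). The Prrx1 window is chr1:163261875-163261964 on the minus strand and the Prrx2 window is chr2:30878467-30878556 on the plus strand, both in exon 2. The Twist1 window is chr12:33958324-33958413 and the Twist2 window is chr1:91801835-91801924, both on the plus strand and in exon 1. The Msx1 window is chr5:37821521-37821610 and the Msx2 window is chr13:53468414-53468503, both on the minus strand and in exon 2.
Prrx1: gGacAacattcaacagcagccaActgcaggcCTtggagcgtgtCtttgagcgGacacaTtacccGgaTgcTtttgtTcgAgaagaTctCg
Prrx2: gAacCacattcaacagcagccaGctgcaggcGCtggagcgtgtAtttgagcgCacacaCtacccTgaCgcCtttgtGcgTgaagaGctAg
Twist1: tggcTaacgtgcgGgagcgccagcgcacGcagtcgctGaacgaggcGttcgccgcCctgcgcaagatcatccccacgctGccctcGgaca
Twist2: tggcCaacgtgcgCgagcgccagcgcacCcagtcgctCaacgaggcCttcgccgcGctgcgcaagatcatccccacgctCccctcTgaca
Msx1: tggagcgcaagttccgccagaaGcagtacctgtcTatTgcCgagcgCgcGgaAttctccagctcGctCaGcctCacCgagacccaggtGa
Msx2: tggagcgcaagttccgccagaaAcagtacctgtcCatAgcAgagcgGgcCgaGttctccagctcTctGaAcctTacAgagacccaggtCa
The Twist pair was the closest, with 82 of 90 bases identical (91.1%), against 77 (85.6%) for the Msx pair and 75 (83.3%) for the Prrx pair. The longest identical run was 23 bases for Twist, 22 for Msx and 19 for Prrx, and no stretch of 50 bases was shared between members of a pair. A read of that length or longer without errors could thus be assigned to its own gene in each pair, and the paralogs are compared below as separate genes. Over whole transcripts, Prrx2, Twist1, Msx1 and Gsc shared no stretch of 50 bases with any other annotated gene, and Prrx1 and Msx2 shared 0.171% and 0.465% of theirs. Twist2 is the exception, since 45.7% of its stretches also occur in Gm29100, an antisense gene on the other strand, and whether the counting used strand is not stated, so Twist2 is uncertain to that extent.

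The first comparison asks whether the 9 genes differed between KO and WT cells. With a threshold of 0.05 on the edgeR adjusted p, 1127 of 15223 tested genes (7.4%) were called, 540 higher (3.55%) and 587 lower (3.86%) in KO. Of the 9 genes, 7 had enough reads to be tested: 1 fell (Gsc), 0 rose, and 6 were not called. At an unadjusted p under 0.05, which 22.2% of all tested genes reached, there were 2, Gsc and Msx2, and DESeq2 called the same 2 where it called 15.8% of all genes, 7.97% as lower; neither tool had a member higher in KO. The median log2 fold change of the 7 was -0.15, and it was 0.01 over all tested genes. With 1 call among 7, the share of these genes called cannot be set apart from the share of all genes. The groups did not overlap for 2 of the 7, Gsc and Msx2, both lower in KO, where 30.0% of all tested genes had groups that did not overlap, 15.4% with KO below WT.

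**Figure D1:**
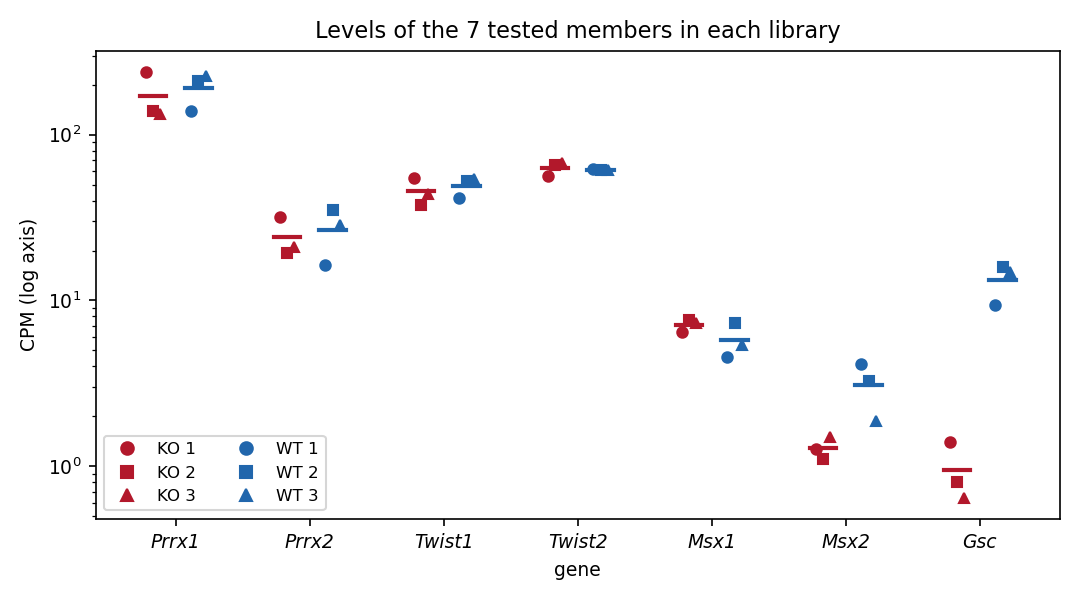
Level of the 7 tested genes in each library, in CPM on a log axis, with KO libraries in red left of WT libraries in blue and a bar at each group mean (n = 3 each). Gsc is at 0.646 to 1.40 CPM in KO and 9.40 to 15.8 CPM in WT, while for Prrx1, Prrx2 and Twist1 the first KO library and the WT libraries 2 and 3 lie above the other 3.

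Prrx1 (ENSMUSG00000026586.16, chr1:163245119-163313710, minus strand) and Prrx2 (ENSMUSG00000039476.13, chr2:30834972-30881251, plus strand) are the paired-related homeobox genes of limb and facial mesenchyme, and Prrx1 is also widely used as a marker of fibroblast lineages. Prrx1 was at 239, 139 and 133 CPM in KO 1, 2 and 3, against 139, 210 and 225 CPM in WT 1, 2 and 3. Its groups overlapped: KO 1 was the highest library of the 6, and WT 1 was level with KO 2. The means were 170 ± 59.7 CPM in KO and 191 ± 45.9 CPM in WT, with a log2 fold change of -0.17 (SE 0.28, 95% interval -0.84 to 0.51, edgeR adjusted p = 0.788). Prrx2 was lower in level and split the libraries in the same way, with 31.8, 19.2 and 21.1 CPM in KO and 16.4, 34.9 and 28.6 CPM in WT. The log2 fold change of Prrx2 was -0.15 (SE 0.32, interval -0.90 to 0.61, edgeR adjusted p = 0.84). Both intervals hold 0 and span more than 1 log2 unit, so these libraries do not place the change of the Prrx genes more closely.

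Twist1 (ENSMUSG00000035799.6, chr12:33957671-33959829, plus strand) and Twist2 (ENSMUSG00000007805.4, chr1:91801461-91848028, plus strand) encode the bHLH factors that keep mesenchyme undifferentiated, and loss of 1 copy of Twist1 closes skull sutures early in mice. Twist1 was at 55.2, 37.5 and 43.8 CPM in KO, against 41.5, 52.6 and 53.7 CPM in WT. As with both Prrx genes, KO 1, WT 2 and WT 3 were the 3 highest libraries and WT 1, KO 2 and KO 3 the 3 lowest, an order that crosses the genotype. The Twist1 means were 45.5 ± 8.95 CPM in KO and 49.3 ± 6.72 CPM in WT (log2 fold change -0.12, SE 0.18, interval -0.54 to 0.31, edgeR adjusted p = 0.767). Twist2 varied least of the 7 genes, with 56.1, 65.4 and 67.1 CPM in KO and 61.7, 61.6 and 61.3 CPM in WT. All 3 WT values of Twist2 fell inside the KO range, and its log2 fold change of 0.03 had the narrowest interval (-0.22 to 0.28, SE 0.11, edgeR adjusted p = 0.907). Its spread within groups, as the SD of log2 CPM, stood at the 10.2 percentile of all tested genes, against 44.4 for Twist1, 67.9 for Prrx1 and 72.3 for Prrx2. Gm29100, the antisense gene inside Twist2, had 30, 55 and 70 counts in KO and 58, 16 and 51 in WT, where Twist2 had 2169, 2786 and 2285 counts in KO and 2225, 2668 and 2672 in WT.

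Without KO 1 and WT 1, the libraries that stood apart, Prrx1, Prrx2 and Twist1 had tighter and lower fold changes. In these genes KO 1 was among the highest libraries and WT 1 among the lowest. Leaving both out removes the libraries that ran against a lower level in KO, so the direction follows from that choice. The log2 fold change was -0.68 for Prrx1 (interval -0.82 to -0.54, edgeR adjusted p = 3.54e-06), -0.66 for Prrx2 (interval -0.93 to -0.39, adjusted p = 0.000927) and -0.39 for Twist1 (interval -0.59 to -0.19, adjusted p = 0.00435). Together with Gsc, 4 of the 7 genes were then called lower in KO, while Twist2 (0.11, adjusted p = 0.255) and Msx1 (0.23, adjusted p = 0.391) were not called, nor was Msx2 (-0.99, interval -1.89 to -0.08, adjusted p = 0.0698). That setting calls 48.0% of all 15449 genes it tests and 24.6% as lower in KO, so 4 of 7 is to be read against a background that is itself wide. It compares 2 pairs of near-alike libraries, in which genotype cannot be told apart from any other difference between the pairs.

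**Figure D2:**
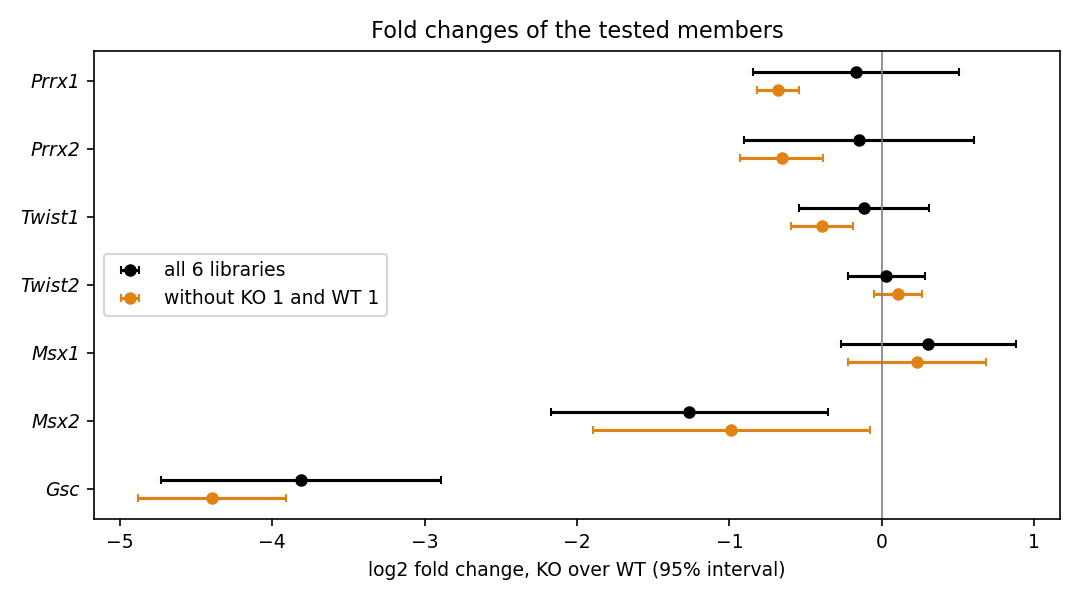
Log2 fold change of KO over WT with its 95% interval for the 7 tested genes, from all 6 libraries (black) and without KO 1 and WT 1 (orange). Gsc lies at -3.81 and -4.40, far from the line at 0 in both, and the intervals of Prrx1, Prrx2 and Twist1 exclude 0 in the orange set alone.

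Alx1 (ENSMUSG00000036602.14, chr10:102998707-103030215, minus strand) and Alx4 (ENSMUSG00000040310.12, chr2:93642384-93681339, plus strand) are aristaless-like homeobox genes of facial and limb mesenchyme, and neither had enough reads to be tested. Alx1 had 0, 9 and 0 counts in KO and 0, 0 and 0 in WT, so its reads came from KO 2 alone, at 0.211 CPM. Alx4 had 0 counts in all 6 libraries, which allows up to 0.0881 CPM in the shallowest library by the floor of 3 counts. Ext2, which makes heparan sulfate and overlaps Alx4 on the opposite strand, had 5964, 6353 and 5137 counts in KO and 7125, 9779 and 9648 in WT. These MEFs thus held reads of the Prrx and Twist genes and almost none of the Alx genes.

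Msx1 (ENSMUSG00000048450.10, chr5:37820485-37824583, minus strand) and Msx2 (ENSMUSG00000021469.9, chr13:53466884-53473074, minus strand) encode homeobox repressors that respond to BMP in the limb, teeth and skull. Msx1 was at 6.42, 7.65 and 7.34 CPM in KO, against 4.55, 7.35 and 5.39 CPM in WT. The groups overlapped, with WT 2 level with KO 3, and the log2 fold change was 0.31 (SE 0.24, interval -0.27 to 0.88, edgeR adjusted p = 0.518). Msx2 was at 1.27, 1.10 and 1.5 CPM in KO, against 4.16, 3.28 and 1.86 CPM in WT, from 49, 47 and 51 counts in KO and 150, 142 and 81 counts in WT. All 3 KO libraries lay below all 3 WT libraries, but WT 3 was close to KO 3. The means were 1.29 ± 0.199 CPM in KO and 3.10 ± 1.16 CPM in WT (SD, n = 3 each), with a log2 fold change of -1.26 (SE 0.38, interval -2.17 to -0.35). The unadjusted p was 0.0135 and the edgeR adjusted p was 0.107, so Msx2 was not called, although DESeq2 gave an adjusted p of 0.0259 for it. Msx3, the remaining gene of the family, had 0 counts in every library.

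Gsc (ENSMUSG00000021095.5, chr12:104471209-104473330, minus strand) was the member that fell. It was at 1.40, 0.798 and 0.646 CPM in KO, against 9.40, 15.8 and 14.9 CPM in WT, from 54, 34 and 22 counts in KO and 339, 684 and 648 counts in WT. The groups were far apart, with the lowest WT library well above the highest KO library, though every KO library still held Gsc reads. The means were 0.947 ± 0.397 CPM in KO and 13.4 ± 3.46 CPM in WT (SD, n = 3 each), a 14.0-fold lower level in KO with a log2 fold change of -3.81 (SE 0.39, interval -4.73 to -2.89, edgeR adjusted p = 0.00314). Bulk RNA cannot tell fewer cells with Gsc from less Gsc RNA per cell. With each library left out in turn, the log2 fold change lay between -4.20 and -3.59 and the adjusted p between 0.00367 and 0.0266, and without KO 1 and WT 1 it was -4.40 (adjusted p = 2.48e-08). Gsc2, its paralog, had 0 counts in every library.

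A noncoding gene annotated beside the start of Gsc also had fewer reads in KO. Gm10000 (ENSMUSG00000114826.2, chr12:104473331-104477759, plus strand), annotated as a long noncoding RNA from a bidirectional promoter, begins at the base next to the annotated start of Gsc and runs the other way. It was named after its values were seen. Gm10000 had 0, 0 and 0 counts in KO, against 25, 23 and 31 in WT, and averaged 0.645 ± 0.0992 CPM in WT, at least 8.20-fold lower in KO against the floor of 3 counts per library. Its edgeR adjusted p was 0.019, and with each library left out it ranged from 0.0332 (without KO 1) to 0.103 (without WT 3), with the call lost without KO 2, KO 3, WT 1, WT 2 or WT 3. Since the strand setting of the counting is not known, reads of Gsc transcripts that begin upstream of the annotated start cannot be told apart from Gm10000 reads.

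**Figure D3:**
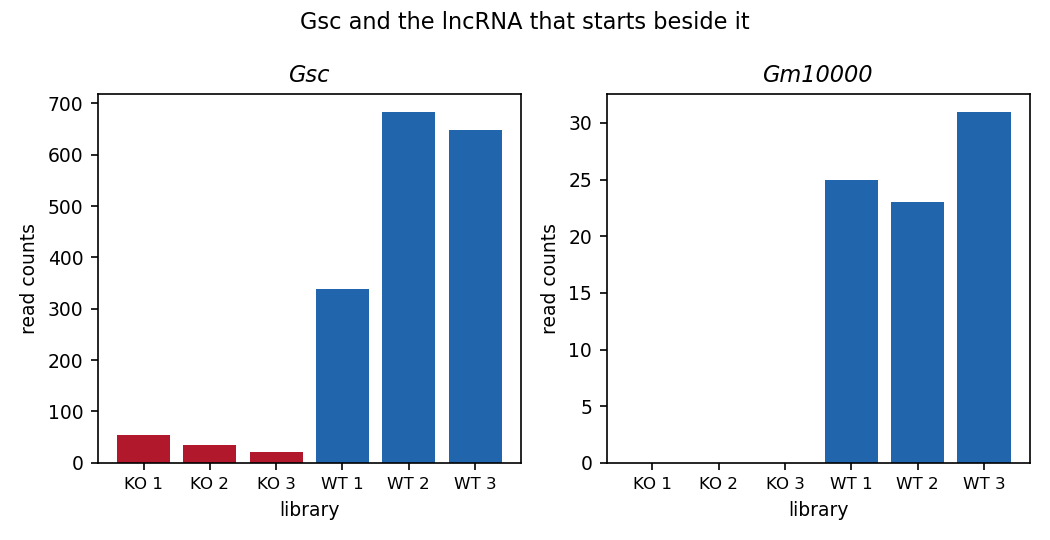
Read counts of Gsc (left) and of Gm10000, the noncoding RNA that starts beside it (right), in each library, KO in red and WT in blue; each panel has its own axis from 0. Gsc has 22 to 54 counts in KO and 339 to 684 in WT, and Gm10000 has 0 in every KO library and 23 to 31 in WT.

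The 156 bases before the annotated start of Gsc are printed here because they are at once the upstream sequence of Gsc and the first bases of Gm10000. The sequence is read on the strand of Gsc, chr12:104473331-104473486, minus strand, from the RefSeq promoter table on GRCm38.p6, whose own start for Gsc lies 94 bases further in. Capitals mark 3 motifs searched on both strands that do not overlap: CANNTG (the E-box bound by bHLH proteins), the other-strand match of TAAT (a core often bound by homeodomains) and TATAAA.
Gsc upstream: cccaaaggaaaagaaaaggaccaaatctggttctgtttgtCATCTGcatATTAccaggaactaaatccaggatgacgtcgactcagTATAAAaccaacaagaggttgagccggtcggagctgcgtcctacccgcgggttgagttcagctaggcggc
CANNTG lies at bases 41 to 46, TAAT at 50 to 53 and TATAAA at 87 to 92. In windows of 250 bases before the start of 32851 RefSeq promoters, 12.4% hold TATAAA, 54.9% hold TAAT and 66.2% hold CANNTG. A promoter sequence was found for 7 of the 9 genes, with TATAAA in those of Gsc and Twist1, CANNTG in those of Gsc, Msx1 and Msx2, TAAT in those of Gsc, Msx1, Msx2, Prrx1 and Twist2, and none of the 3 in that of Prrx2. These matches describe the letters of the window, and TAAT and CANNTG are found in most promoters. The Prrx2 window, chr2:30845117-30845416, lies inside the annotated span of Prrx2, which starts at 30834972 on the plus strand. It is therefore not the sequence before that annotated start.

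Genes within 500 kb were read to see whether a change at a member was shared by its neighbours. Around the 9 genes 60 neighbours were tested, of which 1 rose and 6 fell in KO, where 3.55% of all tested genes rose and 3.86% fell. The Gsc region held 3 of the 6 falls among 6 tested neighbours: Gm10000, Gm28875 and Syne3, which encodes a nuclear envelope protein. Syne3 averaged 37.1 ± 9.50 CPM in KO and 82.5 ± 1.46 CPM in WT (2.22-fold lower, edgeR adjusted p = 0.0155), and Gm28875 averaged 3.70 ± 0.638 CPM in KO and 8.67 ± 0.889 CPM in WT (2.34-fold lower, adjusted p = 0.0233). Their starts lie 536 and 453 kb upstream of that of Gsc, and Dicer1, whose start is 279 kb upstream and thus between them and Gsc, had a log2 fold change of -0.12 (adjusted p = 0.86). Clmn, at 0.88 (adjusted p = 0.084), and Serpina3g, at 1.36 (adjusted p = 0.415), were not called either. Across chromosome 12 as a whole, 41 of 545 tested genes (7.52%) were lower in KO and the median log2 fold change was -0.22; Twist1 lies on the same chromosome.

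At the other genes, 2 of 21 neighbours of Prrx2 fell: Ier5l (60.8 ± 8.14 CPM in KO and 104 ± 13.9 CPM in WT, edgeR adjusted p = 0.0285) and Tor1b (62.5 ± 2.58 CPM in KO and 83.2 ± 3.07 CPM in WT, adjusted p = 0.0456). Slc6a15, an amino acid transporter and the single tested neighbour of Alx1, rose, with 12.7 ± 2.09 CPM in KO and 1.87 ± 1.08 CPM in WT (log2 fold change 2.76, adjusted p = 0.0143), while Alx1 itself was at or near 0. Ext2, 1 of 8 tested neighbours of Alx4, fell, with 151 ± 2.66 CPM in KO and 215 ± 15.2 CPM in WT (1.42-fold lower, adjusted p = 0.0314). No neighbour was called at Prrx1 (3 tested), Twist1 (1 tested, Hdac9), Twist2 (10 tested), Msx1 (7 tested) or Msx2 (3 tested), where 6 of these 24 had an unadjusted edgeR p under 0.05 and DESeq2 called 2. Over all tested genes, 22.2% reached that unadjusted p and DESeq2 called 15.8%. The count of called neighbours was 7 without KO 1 and 6 without WT 1, but 1 without KO 2 or WT 2 and 0 without KO 3 or WT 3.

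Lamp1, a lysosomal membrane protein, and Plau, the urokinase protease, had the patterns most like that of Gsc among 9929 named genes whose mean reached 5 CPM, with a Pearson r of 0.999 each on log2 CPM over the 6 libraries. Lamp1 was at 817, 735 and 718 CPM in KO and 1040, 1125 and 1123 CPM in WT, and Plau at 34.4, 28.5 and 27.7 CPM in KO and 60.1, 76.1 and 72.0 CPM in WT. In both genes, as in Gsc, KO 1 was the highest KO library and WT 1 the lowest WT library. Both genes were picked for their likeness to Gsc, so this shared order is no separate result. An r above 0.99 was reached by 59 of the 9929 genes, over 6 points that fall into 2 groups. The values are given as a description.

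Paralogs were next compared within each library, where the scaling between libraries drops out. The log2 ratio of Msx1 to Msx2 counts was 2.33, 2.78 and 2.28 in KO, against 0.13, 1.16 and 1.53 in WT. Msx1 thus had 4.86 to 6.87 counts for each Msx2 count in KO and 1.09 to 2.89 in WT, and the groups did not overlap. The means were 2.46 ± 0.28 in KO and 0.94 ± 0.73 in WT (SD, n = 3 each), a difference of 1.52 with a two-sided exact permutation p of 0.1, the smallest p that 3 against 3 libraries can give, and 0.3 after Benjamini-Hochberg adjustment over the 3 ratios computed. For Prrx1 to Prrx2 the log2 ratio was 2.91, 2.85 and 2.65 in KO and 3.08, 2.59 and 2.98 in WT (difference -0.08, exact p = 0.6). For Twist1 to Twist2 it was -0.02, -0.80 and -0.62 in KO and -0.57, -0.23 and -0.19 in WT (difference -0.15, exact p = 0.6). Both of these ratios overlapped between groups, and the ratio of the Alx genes was left out because Alx4 had 0 counts in every library.

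**Figure D4:**
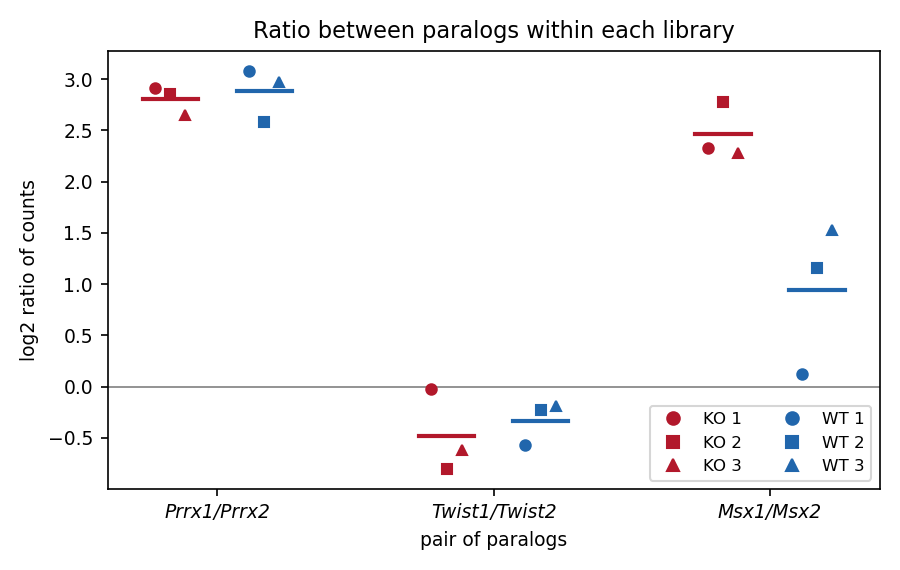
Log2 ratio of read counts between paralogs within each library, KO in red left of WT in blue, with a bar at each group mean (n = 3 each). The Msx1/Msx2 ratio is 2.28 to 2.78 in KO and 0.13 to 1.53 in WT, while the Prrx and Twist ratios overlap between the groups.

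To set the genes beside each other, CPM were divided by the length of all annotated exons in kb. On this scale of level, Twist1 was highest, at 27.9 ± 5.50 CPM per kb in KO and 30.3 ± 4.13 in WT. Twist2 followed at 19.8 ± 1.86 in KO and 19.4 ± 0.0658 in WT, then Prrx1 at 15.4 ± 5.39 in KO and 17.3 ± 4.15 in WT, and Prrx2 at 12.3 ± 3.45 in KO and 13.6 ± 4.80 in WT. The Twist1 libraries lay above all Twist2 libraries in each group, whereas the range of Twist2 overlapped with that of Prrx1, and that of Prrx1 with that of Prrx2. Within every single library, however, Prrx1 lay above Prrx2, at 51.5% to 60.0% of their sum. Twist2 lay below Prrx1 in KO 1 and WT 3 and above it in the other libraries. Gsc changed rank between the groups: at 0.747 ± 0.313 CPM per kb in KO it was the sixth, below Msx1 (2.30 ± 0.207), and at 10.5 ± 2.73 in WT it was the fifth, above Msx1 (1.86 ± 0.463) and overlapping with Prrx2. Msx2 was the lowest in both, at 0.393 ± 0.0606 in KO and 0.945 ± 0.354 in WT. Divided by the longest coding transcript instead, Prrx1 was at 26.1 CPM per kb in KO and 29.3 in WT and came out above Twist2, at 24.9 in KO and 24.4 in WT, so the order of these genes depends on the length taken for Prrx1.

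The shares within pairs on the same per-kb scale of level show how even most pairs were. Twist1 made up 65.7%, 52.8% and 56.0% of the Twist pair in KO and 56.7%, 62.5% and 63.1% in WT, and Prrx1 made up 57.1%, 56.1% and 52.7% of the Prrx pair in KO and 60.0%, 51.5% and 58.3% in WT. Msx1 made up 84.3%, 88.0% and 83.8% of the Msx pair in KO, against 53.7%, 70.3% and 75.4% in WT. Each share follows from the ratio of counts given above. The lack of overlap for the Msx pair is therefore the same result on another scale.

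Lists of genes that work with or after these factors were then read in the same fit. Of 102 listed genes, 75 were tested, and 7 rose, 15 fell and 53 were not called in KO, where 7.4% of all tested genes were called. The median log2 fold change of the 75 was -0.29, and it was 0.01 over all tested genes.

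Among Twist partners and inhibitors 8 of 13 genes were tested, 0 rose and 2 fell, with a median log2 fold change of -0.41. None was higher with edgeR at an unadjusted p under 0.05 or with DESeq2 either, and Tcf3 joined the lower genes in both. Tcf12, which encodes an E protein that pairs with Twist1, was at 140, 153 and 152 CPM in KO, against 286, 303 and 308 CPM in WT. Each KO library lay at about the same level, far below every WT library, a 2.02-fold lower level in KO (edgeR adjusted p = 0.00282). Tcf12 lies on chromosome 9 (chr9:71842688-72111871), where 93 of 821 tested genes (11.3%) were lower in KO. Tcf3 and Tcf4, the other E proteins, were not called, with log2 fold changes of -0.41 (adjusted p = 0.0936) and 0.16 (adjusted p = 0.737). Id3, an inhibitor that binds E proteins away from Twist, averaged 48.0 ± 6.57 CPM in KO and 91.9 ± 18.4 CPM in WT (1.91-fold lower, adjusted p = 0.0271), and its call was lost without KO 2, KO 3, WT 2 or WT 3, with adjusted p up to 0.0975. Id1, Id2 and Id4 were not called.

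Of the BMP pathway 19 of 22 genes were tested, with 1 higher, 4 lower and a median of -0.10. Nog, which encodes the secreted BMP antagonist noggin, was the gene that rose, with 2.15, 4.20 and 3.35 CPM in KO, against 0.527, 0.370 and 0.252 CPM in WT (log2 fold change 3.07, edgeR adjusted p = 0.0111). The ligand gene Bmp4 fell, at 13.1 ± 2.46 CPM in KO and 25.8 ± 1.70 CPM in WT (1.98-fold lower, adjusted p = 0.0199). The ligands went both ways, and edgeR did not call the other ones named here: Bmp2 averaged 0.382 ± 0.527 CPM in KO and 8.67 ± 4.24 CPM in WT (log2 fold change -4.48, adjusted p = 0.0634), Bmp6 had a log2 fold change of 1.34 (adjusted p = 0.0797) and Gdf5 had a log2 fold change of 2.05 (adjusted p = 0.106). DESeq2 called all 3, and 3 genes of the list as higher and 6 as lower in all. The inhibitory Smad6, itself a BMP target and on chromosome 9 like Tcf12, averaged 17.4 ± 0.998 CPM in KO and 33.8 ± 4.89 CPM in WT (1.95-fold lower, adjusted p = 0.0128). Smad9, a receptor-activated Smad, averaged 2.12 ± 0.449 CPM in KO and 4.86 ± 0.682 CPM in WT (2.29-fold lower, adjusted p = 0.048), and the receptor gene Acvr1 was the fourth to fall. The other BMP receptors tested, Bmpr1a, Bmpr1b and Bmpr2, and the transducers Smad1, Smad5 and Smad4 were not called by edgeR, while DESeq2 called Smad4 as lower. The Nog and Smad6 calls were lost without KO 2, KO 3, WT 2 or WT 3 (adjusted p up to 0.0615 and 0.0706), that of Bmp4 without KO 2, WT 2 or WT 3 (up to 0.0852), and that of Smad9 without any library (up to 0.172).

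Of the 5 transcription factors of epithelial-mesenchymal transition, with which Twist1 is often grouped, 0 rose and 1 fell, and the median log2 fold change was 0.02. Snai1 was the 1 gene higher in KO with edgeR at an unadjusted p under 0.05, and DESeq2 called it. Snai2 (Slug) was at 18.3, 11.5 and 13.5 CPM in KO, against 36.9, 44.3 and 46.3 CPM in WT. The groups were well apart, with a 2.94-fold lower level in KO (edgeR adjusted p = 0.00742), and the adjusted p rose to 0.0534 without KO 3. Snai1, Snai3, Zeb1 and Zeb2 were not called in the edgeR fit, and Zeb1 averaged 101 ± 3.66 CPM in KO and 100 ± 17.4 CPM in WT.

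Other patterning factors of the face and skull moved in both directions. Of 38 listed, 26 were tested, 5 rose and 5 fell, and the median was -0.53, also with the 3 genes that had no reads in a whole group set at their bound. Mab21l2 and Mab21l1, close paralogs of the developing eye and face, went opposite ways. Mab21l2 had 400, 227 and 280 counts in KO and 0, 0 and 0 in WT, at least 108-fold higher in KO against the floor of 3 counts per library (edgeR adjusted p = 0.00311). Mab21l1 had 1, 0 and 3 counts in KO, against 352, 494 and 469 in WT, a fitted 278-fold lower level (adjusted p = 0.00148) that rests on those 4 counts and was 181-fold without KO 2 and 687-fold without KO 3. Tfap2a, a neural crest and skin factor, averaged 10.0 ± 1.15 CPM in KO and 1.36 ± 0.32 CPM in WT (log2 fold change 2.87, adjusted p = 0.00221). Tbx18, also on chromosome 9, was at 13.1, 10.7 and 12.1 CPM in KO, against 28.3, 56.7 and 59.3 CPM in WT (4.02-fold lower, adjusted p = 0.0113), and its call was lost without KO 2, KO 3, WT 2 or WT 3 (adjusted p up to 0.0662). Barx1, Osr1 and Pitx1 were the other 3 that rose, and Dlx1 and Dlx5 were among the others that fell.

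Among genes of skeletal differentiation 17 of 24 were tested, with 1 higher, 3 lower and a median of -0.29. Runx2 and Sox9, the regulators of bone and cartilage, were not called: Runx2 averaged 46.5 ± 12.5 CPM in KO and 52.0 ± 12.6 CPM in WT, and Sox9 averaged 38.0 ± 7.47 CPM in KO and 44.6 ± 17.9 CPM in WT. The 3 genes that fell are receptors or membrane ligands. Efnb1, the ephrin whose loss disturbs coronal suture boundaries, averaged 8.94 ± 1.61 CPM in KO and 23.7 ± 0.151 CPM in WT (2.65-fold lower, edgeR adjusted p = 0.00592). Efnb1 lies on chromosome X (chrX:99136130-99148991), where 24 of 507 tested genes (4.73%) were lower in KO. The groups differed in Xist and Y-linked reads, and the part of this difference in Efnb1 was not tested. Fgfr2 averaged 21.7 ± 3.69 CPM in KO and 48.6 ± 2.31 CPM in WT (2.24-fold lower, adjusted p = 0.00753), and Fgfr1 averaged 180 ± 7.64 CPM in KO and 292 ± 29.9 CPM in WT (1.62-fold lower, adjusted p = 0.0169). Acan, the cartilage proteoglycan aggrecan, had 206, 467 and 198 counts in KO, against 10, 0 and 20 counts in WT (log2 fold change 4.89, adjusted p = 0.0292). The Acan call was lost without KO 2, KO 3, WT 1 or WT 3 (adjusted p up to 0.115), and its fold was 29.7 with all libraries, 19.7 without WT 2 and 54.4 without WT 3. The Fgfr1 call was lost without KO 2, KO 3, WT 2 or WT 3 (adjusted p up to 0.0958), while Tcf12, Tfap2a, Mab21l1, Mab21l2, Efnb1 and Fgfr2 kept theirs with any library left out, the highest adjusted p among them being 0.0498.

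**Figure D5:**
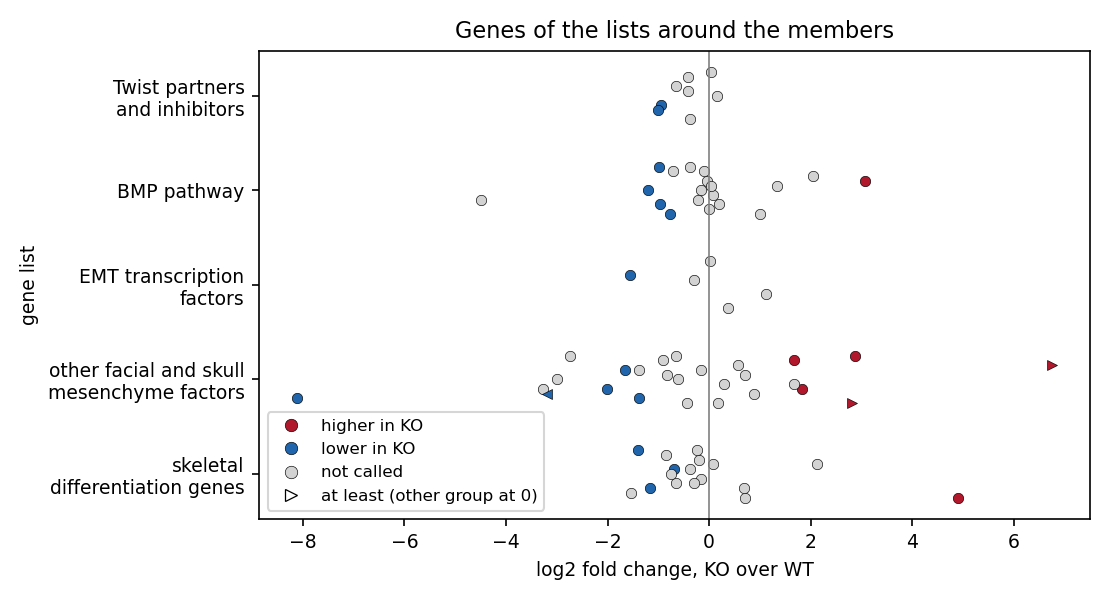
Log2 fold change of KO over WT for each tested gene of the lists, with genes called higher in KO in red, genes called lower in KO in blue and genes not called in grey; triangles mark genes with no reads in a whole group, at the least fold the floor allows. Of 75 genes, 7 are higher and 15 lower, and the list of other facial and skull factors spreads most widely.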

How the data were processed

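RNA sequencing was done on 6 libraries of immortalized MEFs, 3 KO and 3 WT, with a directional kit per the labels' protocols. What the authors deposited are unnormalized counts of reads for each gene symbol. The submitters' processing notes name HISAT2 2.2.1 and Trim Galore 0.6.6 and give a human build although the symbols are mouse ones. How reads were counted (program, strand, annotation) is not given in the sources used here. Groups come from the titles, since the genotype cells of KO 2 and KO 3 name other numbers after PME.

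The test was the quasi-likelihood test of edgeR 4.0.16 (R 4.3.3), with a robust fit, TMM scaling and filterByExpr on the groups, adjusted by Benjamini-Hochberg over 15223 genes with a threshold of 0.05. Every adjusted p of a gene is from edgeR unless DESeq2 is named. Ratios of paralogs used counts + 0.5 and exact permutation tests. The fit was tested on simulated counts. Places and lengths are those of GENCODE M21 on GRCm38, in which 92.9% of symbols were found. Alternatives were DESeq2 1.42.0, limma-voom (limma 3.58.1), other scaling factors and filters, a test against a fold of 1.5, a replicate block and leaving out libraries; the length of the longest coding transcript, for levels per kb, was added after the data were seen.

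The 9 genes and all lists were chosen with earlier results of these data known. Besides the 9 genes and Ppme1, genes named are up to 4 called genes per list and up to 2 called neighbours per gene. These had a mean of at least 1 CPM and were taken by size of the fold change. Also named are the paralogs Msx3 and Gsc2, and the 2 genes of most like pattern. The marker genes named are those called or at 0. Thy1, Dcn, Krt19, Epcam, Cdh1, Ets1 and Erbb3 were added after their values were seen. Other names were chosen after their values were seen, and some genes are not reported here. Intervals of fold changes are at 95%, and floors cover counting error only.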

Additional observations from a re-analysis of the deposited data

How the results depend on the processing

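The count of genes called, 1127, was 2406 with DESeq2, 396 against a fold of 1.5, 7408 without KO 1 and WT 1, and 332 to 1216 with each library left out. The split of 540 higher and 587 lower was 606 and 471 with upper-quartile factors and 588 and 442 with library sizes alone, while Gsc stayed called and lower under both. Called members, 1 with all libraries, were 2 with DESeq2 (Gsc and Msx2), 4 without KO 1 and WT 1, and 1 to 1 with each library left out. Called list genes, 22, were 35 with DESeq2, 12 against a fold of 1.5, 51 without KO 1 and WT 1, and 9 to 22 with each library left out. Called neighbours, 7, were 14 with DESeq2 and 0 to 7 with each library left out. With each library left out, the log2 fold change ran from -0.40 to 0.0933 for Prrx2 (above 0 without KO 2 or WT 2), from -0.28 to 0.0196 for Twist1 (above 0 without KO 2) and from -0.0122 to 0.10 for Twist2 (below 0 without KO 3). The ratio difference ran from -0.23 to 0.0226 for Prrx1/Prrx2, from -0.38 to 0.0106 for Twist1/Twist2 and from 1.12 to 1.82 for Msx1/Msx2. Same-numbered libraries deviated from their group means with correlations of -0.51, -0.31 and -0.22, which does not show whether the replicate numbers pair the libraries. With the replicate block edgeR called 8 genes, 0 members and 0 list genes. In that fit 1 member and 29 list genes had an unadjusted edgeR p under 0.05. The share of all tested genes at that p was not computed, so these counts cannot be set against it. Gsc had a log2 fold change of -3.85 in that fit, with an edgeR adjusted p of 0.0879. The cause of these changes was not tested. With 3 libraries per group a change inside the intervals given cannot be told from 0 where they hold it, and genes near 3 counts, such as Alx1, cannot be compared.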
